A study of Mus musculus with 4 samples.

Results

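The cells described here were the Vwf and Ly6c1 vascular endothelial cells of mouse liver, 90 cells of the 8089 kept from the 2 libraries labelled negative and of the 10215 kept from the 3 libraries with counts in the series. A cell was kept with at least 1000 UMIs (unique molecular identifiers, each standing for 1 captured RNA molecule), 300 genes or more and no more than 20% of its UMIs from mitochondrial genes. Members were the kept cells with at least 15 UMIs per 10000 of Vwf, Ly6c1 and Adgrg6 together and at least 10 per 10000 of the pan-endothelial genes Kdr, Ptprb, Cdh5 and Egfl7. They also had under 3 UMIs of Rspo3 and Wnt9b, under 2 UMIs of Selp and under 10 per 10000 of the mesothelial genes Msln, Upk3b, Nkain4 and Lrrn4. Because measured levels chose the members, every difference between members and other endothelial cells below is a description with no test. Endothelial cells here are all kept cells that met the pan-endothelial and mesothelial limits.

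The series used droplet single-cell RNA sequencing of non-parenchymal liver cells from mice given MCDHF for 8 weeks to induce steatohepatitis, a diet short of methionine and choline with 45% fat and with 0.1% L-methionine given back in the water. The members came from the negative fraction at recovery, labelled Col1a2-CreERT2; R29RtdTomato, and from the negative fraction at injury, labelled Col1a2-CreERT2; R28RtdTomato. Both stages shared the inducible Cre driven by Col1a2, a collagen gene of mesenchymal cells, and the digestion with Pronase (14 mg) and Collagenase (3.7 U) per animal, and the series text calls the reporter R26RtdTomato. The sources used here give neither the length of recovery nor the number of animals per library nor how the fractions were separated.

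Most endothelial cells of the liver line the sinusoids, where they are fenestrated, lack a continuous basement membrane and clear material from the blood through scavenger receptors. The larger vessels, the hepatic artery branches, portal veins and central veins, are lined by continuous endothelium that stores von Willebrand factor in Weibel-Palade bodies, couples through connexins and rests on an elastic wall. Endothelium responds to interferon by inducing antiviral and antigen-presenting genes, and it signals to neighbouring mural cells through endothelin, nitric oxide and Notch ligands.

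In the negative fraction, the recovery library had 27816768 UMIs in 3108 barcodes, and the injury library had 49993127 UMIs in 6160 barcodes. After filtering, 2818 recovery cells with a median of 8815 UMIs and 5271 injury cells with a median of 6995 UMIs remained. The 25 recovery members carried 261617 UMIs and the 65 injury members 376685 UMIs, so 3 UMIs came to 11.5 CPM (UMIs per 1000000 of the group's summed UMIs) in recovery members and 7.96 CPM in injury members. The libraries shared 3 barcodes, and 0 of them were members. Each stage was 1 library, so stage, library and reporter label cannot be told apart, and no p-value is given. Intervals are 95% (for levels exact Poisson, for shares exact Clopper-Pearson), and they cover counting error only.

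Members were a small share of the endothelium at both stages. They made up 25 of 2298 endothelial cells (1.09%, interval 0.705% to 1.602%) at recovery and 65 of 3772 (1.72%, interval 1.33% to 2.19%) at injury, and the 2 intervals overlapped. Of all kept cells they were 0.887% at recovery and 1.23% at injury. The threshold cut through a continuous range: the lowest members had 15.4 and 16.3 UMIs per 10000 of the 3 vascular genes at recovery and 15.2 and 15.8 at injury, while the highest cells left out for this sum alone had 14.4 and 14.0 at recovery and 14.97 and 14.7 at injury. In addition, 72 recovery cells and 61 injury cells met the vascular limit but were held out by Rspo3 or Wnt9b, genes of central vein endothelium, and 8 recovery cells and 40 injury cells by Selp alone. The 17 recovery cells with 2 or more Selp UMIs resembled members, with Ly6c1 at 512.4 CPM, Gja5 at 137 CPM and Vwf at 928.1 CPM. In the recovery library labelled positive, 1 cell met the same limits.

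The 6 genes given as markers of these cells were all at least 2-fold higher in members than in other endothelial cells of the same library, in both libraries. The background for that count was 4.83% of 7271 genes in recovery (12.1% higher or lower) and 3.34% of 6892 genes in injury (7.17% higher or lower), where a gene entered with at least 20 CPM in 1 of the 2 groups and ratios were taken on log2 of the CPM with 10 added. Vwf, which encodes von Willebrand factor, stood at 1028 CPM (909.0 to 1159) in recovery members and 1399 CPM (1282 to 1524) in injury members, against 158.6 and 112.3 CPM in other endothelial cells of those libraries. Ly6c1, a surface antigen of continuous endothelium, stood at 493.1 CPM in recovery members and 1630.0 CPM in injury members, against 14.5 and 62.6 CPM. Adgrg6, an adhesion G protein-coupled receptor, stood at 733.9 and 432.7 CPM in members of recovery and injury, against 25.04 and 18.3 CPM. These 3 genes chose the cells, so their height only restates the rule.

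The other 3 given markers were not part of the rule. Ednrb, an endothelin receptor, was at 1391 CPM in recovery members and 1065 CPM in injury members, against 119.3 and 424.5 CPM in other endothelial cells. Edn1, the gene of endothelin 1, was at 886.8 CPM in recovery members and 241.6 CPM in injury members, against 131.8 and 87.8 CPM. Ly6a, which encodes the surface antigen Sca-1, was at 5695 and 5835 CPM in members, against 696.7 and 1578 CPM. Members were higher than other endothelial cells of their own library for all 3, and the gap was wider in recovery for each. For Ednrb and Ly6a other endothelial cells were lower in recovery than in injury, while for Edn1 members were higher in recovery. Vwf lies on mm10 chromosome 6 (125546774 to 125686679), Edn1 on chromosome 13 (42301476 to 42307990), Ednrb on chromosome 14 (103814625 to 103844402) and Adgrg6 on chromosome 10 (14402583 to 14545659). Ly6a (chromosome 15, 74994877 to 74998031) and Ly6c1 (chromosome 15, 75044018 to 75048830) are neighbours in a family of similar genes. The near copy Ly6c2 was at 0 UMIs in members of both libraries, and the sources used here do not say how reads shared between copies were counted.

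**Figure D1:**
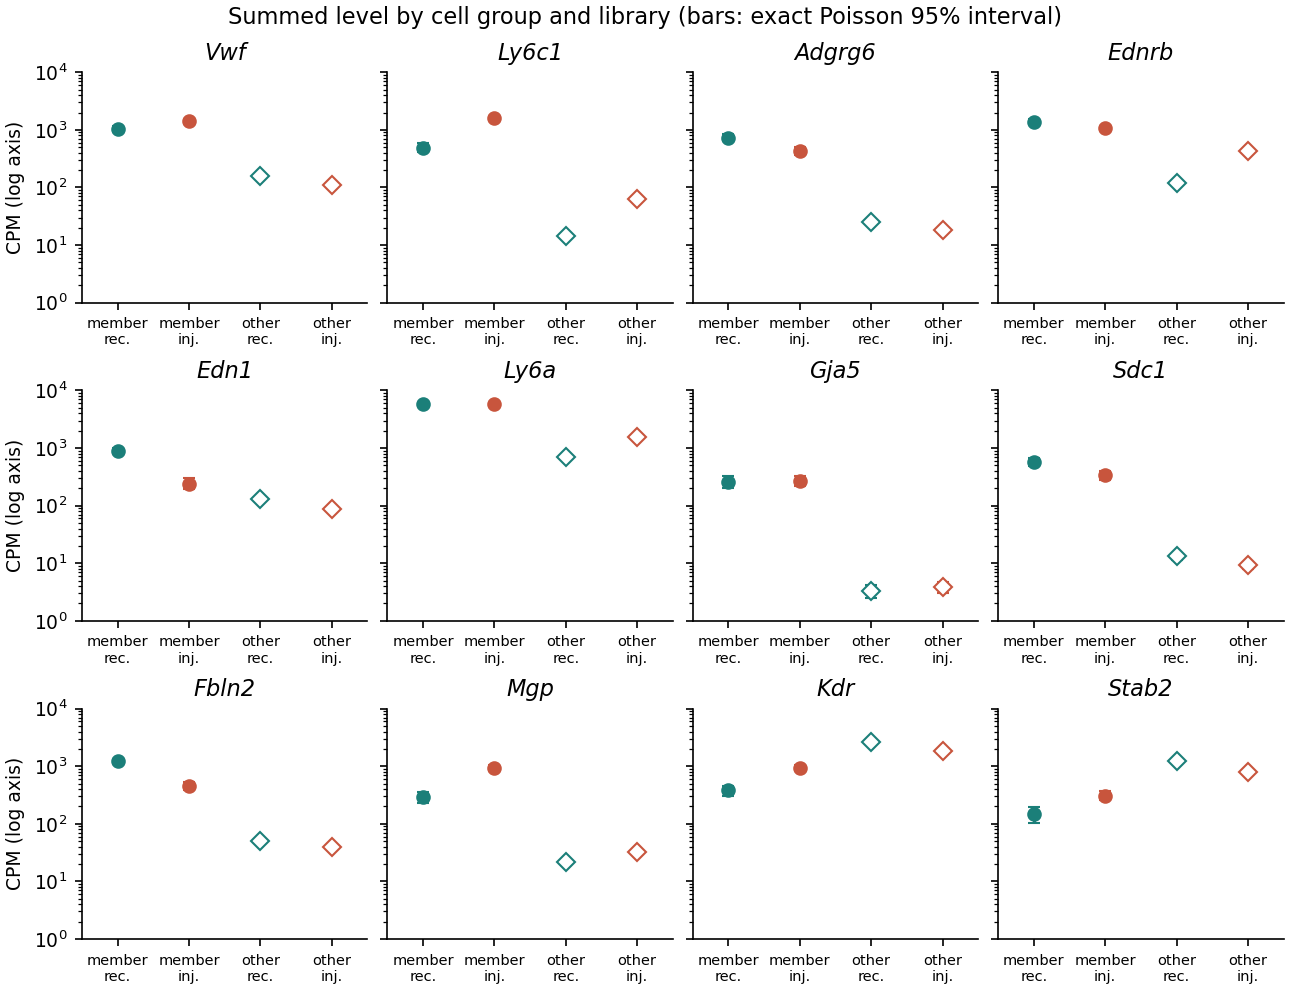
Summed level of 12 genes in CPM on a log axis, for members (filled circles) and other endothelial cells (open diamonds) of the recovery and injury libraries, with exact Poisson 95% intervals that are often smaller than the symbol. Ly6c1 was at 493.1 CPM in recovery members and 1630.0 CPM in injury members, while Kdr and Stab2 were lower in members than in other endothelial cells of both libraries.

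Per cell, detection followed depth, so cells were also thinned to 1000 UMIs each. At that depth Vwf was seen in 64.0% of recovery members (interval 42.5% to 82.0%) and 60.0% of injury members (47.1% to 72.0%), and without thinning in 96.0% and 80.0%. Cholangiocytes, which should lack Vwf, showed it in 0 of 405 recovery cells and 0 of 1055 injury cells at the same depth, with upper limits of 0.907% and 0.349%. Without thinning it was seen in 3 recovery and 9 injury cholangiocytes. These cells were chosen with low pan-endothelial genes, so a lack of endothelial RNA in them is partly built in. Ly6a was seen in 100% of recovery members and 90.8% of injury members after thinning, against 3.70% and 18.8% of cholangiocytes. Median depth was 10122 UMIs in recovery members and 6152 in injury members, against 11379 and 15172 in cholangiocytes. Ly6c1 was seen in 32.0% of recovery members (14.9% to 53.5%) and 63.1% of injury members (50.2% to 74.7%), in the same order as its level.

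Markers of other cell types were low in members. Of the leukocyte list, Ptprc, the common leukocyte antigen, was at 0 UMIs in members of both libraries, and the whole list of 10 genes summed to 26.8 CPM in recovery members and 13.3 CPM in injury members, against 9.48 and 23.2 CPM in other endothelial cells. The 7 recovery UMIs of that list were all Cd74, an MHC class II chaperone, in 2 cells. The 6 smooth muscle markers summed to 3.82 CPM at recovery and 7.96 CPM at injury. Pdpn and Mmrn1, defining markers of lymphatic endothelium, were at 0 UMIs in members of both libraries, and Prox1 was at 0 UMIs at recovery and 1 UMI at injury. The whole list of 8 lymphatic markers shares Flt4 and Lyve1 with the sinusoidal list. It summed to 328.7 CPM at recovery and 576.1 CPM at injury, against 1156 and 2291 CPM in other endothelial cells. Col1a1 was at 0 UMIs in both, and the 11 stellate and pericyte markers summed to 130.0 CPM at recovery and 225.7 CPM at injury, against 130.2 and 217.5 CPM in other endothelial cells. Hepatocyte markers, Alb among them, summed to 84.1 CPM at recovery and 257.5 CPM at injury over 10 genes, against 276.6 and 612.9 CPM. The 7 MHC class II genes, which are high in antigen-presenting leukocytes, summed to 84.1 CPM (22 UMIs) in recovery members and 0 UMIs in injury members, against 15.7 and 20.6 CPM in other endothelial cells. The collagen gene Col3a1 was at 0 UMIs in recovery members and 18.6 CPM (7 UMIs) in injury members, against 0.46 and 4.67 CPM. The part of these markers in the differences between stages was not tested.

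The label did not hold equally well for all members. When the 90 members were clustered on their own they fell into 3 groups: sub-cluster 1 with all 25 recovery members and 11 injury members, sub-cluster 2 with 29 injury members, and sub-cluster 3 with 25 injury members. In sub-cluster 3, 9 of 25 cells had neither Vwf nor Adgrg6 and so met the rule on Ly6c1 alone, against 1 of 36 cells in sub-cluster 1 and 1 of 29 in sub-cluster 2. The sinusoidal genes Stab2, Clec4g, Fcgr2b, Stab1 and Lyve1 together had a median of 52.3 UMIs per 10000 in sub-cluster 3, 19.1 in sub-cluster 2 and 11.7 in sub-cluster 1. Recovery members carried some of this RNA too: 10 of 25 had 20 per 10000 or more, against 35 of 65 injury members. The 15 sinusoidal markers summed to 12694 CPM in sub-cluster 3, against 3534 CPM in the other members. Sinusoidal RNA also helped to form the sub-clusters, so these values are a description. These 25 cells carry sinusoidal and vascular RNA together, and results on injury members are therefore also given for the 40 outside sub-cluster 3.

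**Figure D2:**
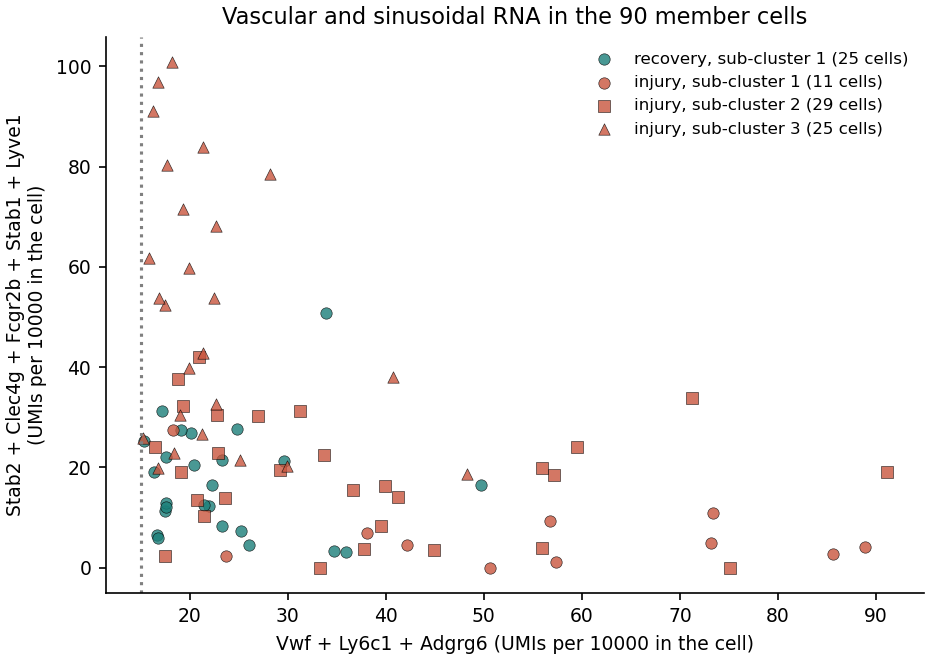
Each point is 1 of the 90 member cells, by its UMIs per 10000 of the 3 vascular genes of the rule (horizontal, dotted line at the limit of 15) and of 5 sinusoidal genes (vertical), with colour for the library and shape for the sub-cluster. Sub-cluster 3 held 25 injury cells with a median of 52.3 UMIs per 10000 of sinusoidal genes.

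The sub-clusters differed in genes of vessel type, which also made the clusters and are given as a description. Gja5, the gene of connexin 40, a gap junction protein of arterial endothelium, was at 259.9 CPM in recovery cells of sub-cluster 1, and at injury at 286.1 CPM in sub-cluster 1, 421.1 CPM in sub-cluster 2 and 85.4 CPM in sub-cluster 3. Mgp, which encodes matrix Gla protein, an inhibitor of calcification, was at 286.7 CPM in recovery cells of sub-cluster 1, and at injury at 3261 CPM in sub-cluster 1, 595.6 CPM in sub-cluster 2 and 170.8 CPM in sub-cluster 3. Stab2, the hyaluronan scavenger receptor of sinusoids, was at 145.3 CPM in recovery cells of sub-cluster 1, and at injury at 0 CPM in sub-cluster 1 (upper limit 52.8 CPM), 90.2 CPM in sub-cluster 2 and 718.6 CPM in sub-cluster 3. Kit, a receptor found on sinusoidal and central endothelium, had 16 UMIs in sub-cluster 3 and 0 in every other member of either library. Igfbp3, a secreted binder of insulin-like growth factors, led sub-cluster 2, but 78% of its 85 UMIs in injury members came from 1 cell. At a finer resolution sub-cluster 3 kept its 25 cells. There 10 recovery cells and 12 injury cells formed a cluster with the lowest sinusoidal content, a median of 6.37 UMIs per 10000. The other 15 recovery cells formed a cluster of their own, with a sinusoidal median of 21.4 UMIs per 10000 and Ly6c1 seen in 7 cells.

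**Figure D3:**
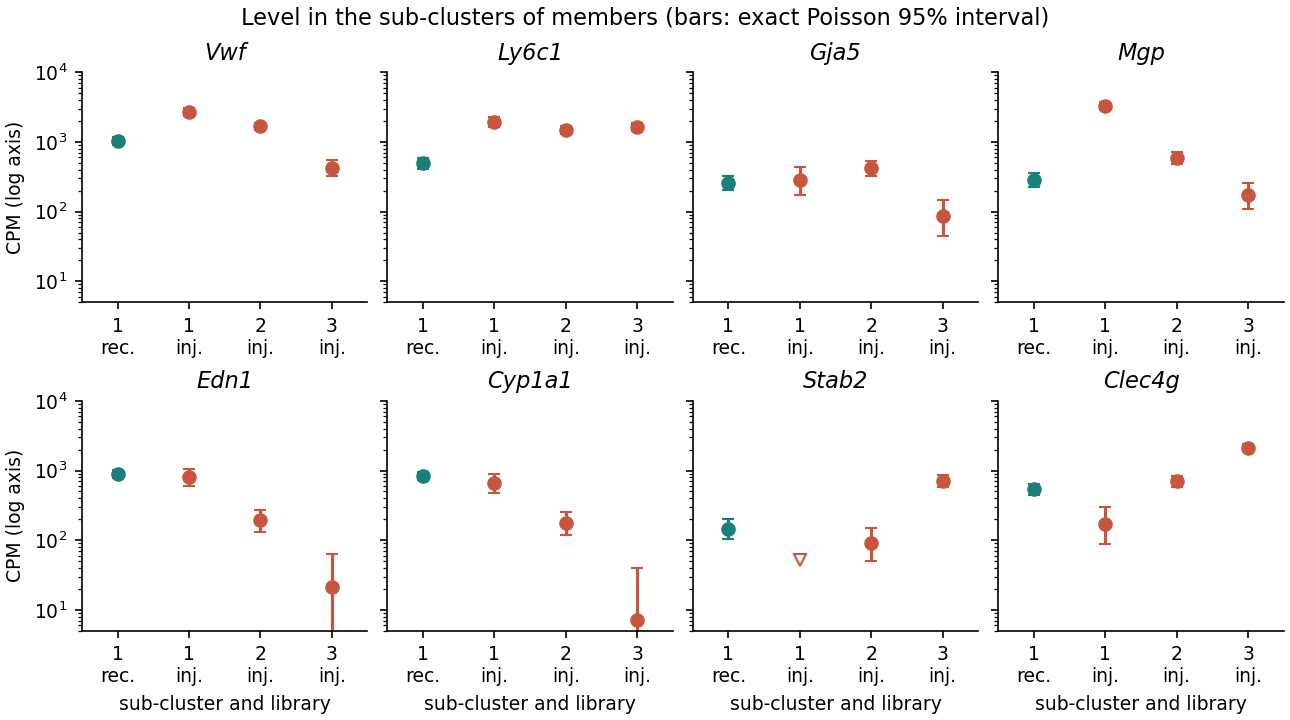
Level of 8 genes in CPM on a log axis in sub-cluster 1 of the recovery library (25 cells) and in sub-clusters 1, 2 and 3 of the injury library (11, 29 and 25 cells), with exact Poisson 95% intervals and an open triangle at the upper limit where no UMI was seen. Edn1 and Cyp1a1 had overlapping intervals in sub-cluster 1 of the recovery and injury libraries, at 886.8 and 800.9 CPM and at 829.5 and 657.9 CPM, and Stab2 and Clec4g were highest in sub-cluster 3.

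Genes of arterial endothelium and of the elastic vessel wall were higher in members than in all other endothelial cells together. Of 12 arterial markers, 9 entered the comparison in recovery, where 5 were at least 2-fold higher in members and 0 lower, with a median log2 ratio of 1.81. In injury 8 of 12 were higher and 0 lower, with a median of 1.56, and the median over all genes was -0.05 in recovery and -0.04 in injury. Among all genes, 4.83% were at least 2-fold higher in recovery members and 3.34% in injury members. Gja5 reached 259.9 CPM (201.8 to 329.5) in recovery members and 270.8 CPM (220.8 to 328.7) in injury members, against 3.24 and 3.79 CPM in other endothelial cells, log2 ratios of 4.35 in both. Jag1, a Notch ligand, was at 359.3 and 297.3 CPM in members, against 34.5 and 36.2 CPM. Sox17, an arterial transcription factor, was at 370.8 and 191.1 CPM, against 98.4 and 92.8 CPM. Gja5 and Jag1 thus stood apart from other endothelial cells by about the same ratio at both stages. Sox17 stood apart by a smaller ratio, over 2-fold in recovery and just under 2-fold at injury. Gja4, the gene of connexin 37, was at 454.9 and 618.6 CPM in members, against 323.8 and 511.0 CPM, under 2-fold. Hey1 and Sema3g rested on 4 UMIs and 1 UMI in recovery members and on 17 and 15 UMIs in injury members.

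Of the 14 genes of elastic fibre and vessel wall matrix, 5 of the 9 that entered were at least 2-fold higher in recovery members and 1 lower (median log2 ratio 2.25), and 6 of 9 were higher and 0 lower in injury members (median 2.09). The shares over all genes were 4.83% higher and 7.25% lower in recovery, and 3.34% and 3.83% in injury. Fbln2, which encodes fibulin 2, was at 1216 CPM (1086 to 1357) in recovery members and 459.3 CPM (393.4 to 533.0) in injury members, against 50.1 and 39.9 CPM. Eln, the elastin gene, was at 191.1 and 154.0 CPM in members, against 31.5 and 4.96 CPM. Fbln5, an assembly factor of elastic fibres, was at 175.8 and 92.9 CPM, against 8.97 and 8.67 CPM, with 50% of the recovery UMIs from 1 cell. Eln was seen in 16 of 25 recovery members and 19 of 65 injury members, and Mgp in 9 of 25 and 17 of 65. Mgp was at 286.7 CPM in recovery members and 931.8 CPM in injury members, against 21.6 and 32.8 CPM. Ltbp4, which binds latent TGF-beta, was at 1391 and 597.3 CPM, against 761.8 and 132.4 CPM, and passed 2-fold in injury with a log2 ratio of 2.09 and not in recovery with 0.86. Col8a1, a short-chain collagen of vessel walls, was at 279.0 and 140.7 CPM, against 4.36 and 2.61 CPM.

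The genes with the highest ratios also included receptors, ligands and enzymes of large-vessel endothelium. Cyp1a1, a xenobiotic-metabolising enzyme induced through the aryl hydrocarbon receptor, had the highest ratio in recovery, at 829.5 CPM (722.8 to 947.5) in recovery members and 201.8 CPM (159.0 to 252.5) in injury members, against 17.0 and 14.2 CPM. Sdc1, a cell surface heparan sulfate proteoglycan, was at 573.4 and 339.8 CPM in members, against 13.1 and 9.13 CPM. Nrg1, a ligand of ErbB receptors, was at 416.6 and 140.7 CPM, against 8.31 and 4.21 CPM. All 3 had log2 ratios above 3 in both libraries, and all 3 had the higher value in recovery members. Npr3, the clearance receptor of natriuretic peptides, was at 305.8 and 172.6 CPM, against 3.80 and 2.48 CPM. Vegfc, the ligand of the lymphatic receptor Flt4, was at 382.2 and 286.7 CPM, against 24.1 and 38.9 CPM. Mecom, a zinc finger transcription factor, was at 477.8 and 262.8 CPM, against 64.1 and 41.1 CPM. Each of these was higher in members of both libraries, and their exact intervals did not meet those of other endothelial cells.

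Vasoactive signalling genes formed a further group. Of 16 genes, 12 entered in each library, and 5 were at least 2-fold higher and 2 lower in recovery members, against 5 higher and 0 lower in injury members. Among all genes, 4.83% were higher and 7.25% lower in recovery members, and 3.34% and 3.83% in injury members. Ace, which makes angiotensin II, was at 194.9 and 204.4 CPM in members, against 6.64 and 37.1 CPM, and 47% of its recovery UMIs came from 1 cell. Nos3, the endothelial nitric oxide synthase, was at 187.3 and 169.9 CPM, against 104.5 and 120.4 CPM, under 2-fold in both libraries. Ptgs1, a cyclooxygenase, was lower in recovery members, at 107.0 CPM against 320.8 CPM in other endothelial cells, and stood at 124.8 against 212.9 CPM at injury. The group therefore moved as single genes, with the endothelin pair and Ace high and Nos3 near the level of other endothelial cells.

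Genes of continuous endothelium were higher in 9 of 14 cases in recovery and 6 of 14 in injury, with 0 lower in either and median log2 ratios of 1.67 and 0.90. The shares of all genes that were higher were 4.83% in recovery and 3.34% in injury. Plvap, which forms the diaphragms of fenestrae and caveolae, was at 1300 CPM in recovery members and 706.2 CPM in injury members, against 244.5 and 234.3 CPM. Cd34, a sialomucin of continuous endothelium, was at 263.7 and 151.3 CPM, against 44.6 and 49.6 CPM. Cavin3 and Ehd2, both proteins of caveolae, were at 405.2 and 366.9 CPM in recovery members and at 305.3 and 114.2 CPM in injury members, against 14.6 and 9.12 CPM at recovery and 10.2 and 4.84 CPM at injury. These 2 caveolar genes, which are not in the list, had higher ratios than Plvap and Cd34 in both libraries. Of 10 pan-endothelial genes, 4 of which the rule used to choose both groups, 0 were higher in members, with a median log2 ratio of -0.38 in recovery and -0.06 in injury. Pecam1, a junction protein of endothelium that the rule did not use, was at 1047 and 910.6 CPM in members, against 728.5 and 677.6 CPM. Cdh5, the junction cadherin of endothelium and a rule gene, was at 905.9 and 708.8 CPM, against 894.6 and 780.3 CPM. Kdr, a receptor of vascular endothelial growth factor and also a rule gene, was 1 of the 2 that were at least 2-fold lower in recovery members, at 378.4 CPM in recovery members and 931.8 CPM in injury members, against 2589.6 and 1868 CPM.

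**Figure D4:**
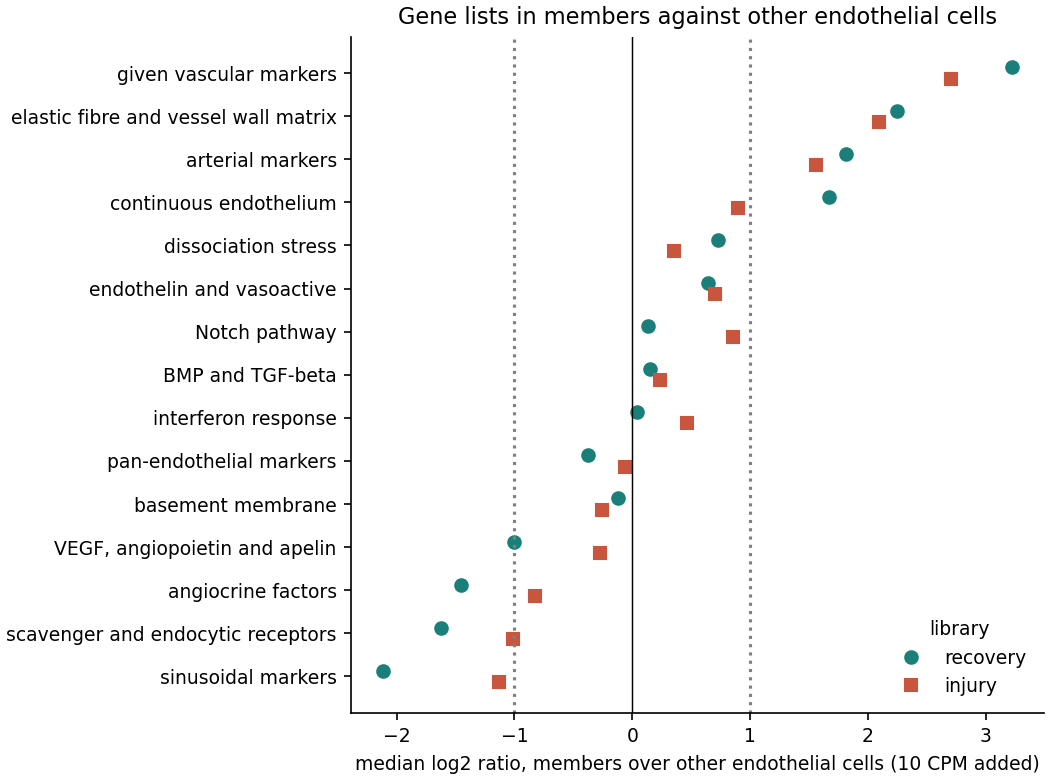
Median log2 ratio of members over other endothelial cells for 15 gene lists (vertical), in the recovery library (circles) and the injury library (squares), with dotted lines at 2-fold. The given markers had medians of 3.23 in recovery and 2.70 in injury, and the sinusoidal markers -2.12 and -1.13, while the median over all genes was -0.05 and -0.04.

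Sinusoidal genes were lower in members, and more so in recovery. Over all genes, 7.25% were at least 2-fold lower in recovery members and 3.83% in injury members, and of the 13 sinusoidal markers that entered, 11 were lower in recovery and 9 in injury. Clec4g, a lectin of sinusoidal endothelium, was at 535.1 CPM in recovery members and 1131 CPM in injury members, against 3315 and 2495 CPM. Stab2 was at 145.2 and 307.9 CPM, against 1248 and 789.6 CPM. Kit was at 0 UMIs in recovery members, at least 22.5-fold lower than the 257.7 CPM of other endothelial cells with 3 UMIs over the group as the floor, and at 42.5 CPM in injury members, against 316.4 CPM. For these genes members at recovery thus stood further from all other endothelial cells together, but the injury values include sub-cluster 3. Sinusoidal RNA helped to form that sub-cluster, so lower values without it are partly built in. Outside it, the log2 ratio of injury members to other endothelial cells was -3.44 for Stab2 and -2.17 for Clec4g, against -3.02 and -2.61 in recovery. There 11 of 13 sinusoidal markers were lower with a median of -2.17, beside 8.35% of all genes.

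Angiocrine factors, signals by which sinusoidal and central endothelium act on hepatocytes, were lower as well. Of 12 that entered, 7 were lower and 2 higher in recovery members, and 6 lower and 1 higher in injury members. Among all genes, 7.25% were lower and 4.83% higher in recovery members, and 3.83% and 3.34% in injury members. Rspo3 and Wnt9b are among those counted as lower in both libraries, and the rule caps them in members, so 2 of the lower genes in each library are fixed by the choice of cells. Wnt2, a ligand for hepatocytes, was at 34.4 CPM (9 UMIs) in recovery members and 21.2 CPM (8 UMIs) in injury members, against 325.0 and 204.6 CPM. Bmp2, which regulates hepatocyte iron sensing through hepcidin, was at 275.2 and 698.2 CPM, against 1732 and 1670.3 CPM. Of the scavenger receptors, 9 of 12 were lower in recovery and 7 of 12 in injury. Gja1, the gene of connexin 43, was at 61.2 and 92.9 CPM, against 323.4 and 414.5 CPM, so members had much Gja5 and little Gja1 and other endothelial cells the reverse.

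Across both libraries, 6538 genes entered each comparison of members with other endothelial cells. Of these, 279 were at least 2-fold higher in recovery members and 206 in injury members, and 492 and 226 were lower. At least 2-fold higher in both were 165 genes, 59.1% of those higher in recovery and 80.1% of those higher in injury. At least 2-fold lower in both were 134 genes, 27.2% of those lower in recovery and 59.3% of those lower in injury, and 1 gene, Thbs1, went opposite ways. Outside sub-cluster 3, injury members had 5.08% of 7091 genes higher and 8.35% lower than other endothelial cells (13.4% either way).

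Members were also set against the endothelial cells with 3 or more UMIs of Rspo3 and Wnt9b (Rspo3/Wnt9b cells), 180 at recovery and 354 at injury, which the rule keeps out of the members. Vwf was at 1028 CPM in recovery members and 1399 CPM in injury members, against 1329 and 611.0 CPM in Rspo3/Wnt9b cells. Edn1 was at 886.8 and 241.6 CPM in members, against 992.4 and 460.2 CPM. Vwf, a rule gene, and Edn1 were therefore within 2-fold of Rspo3/Wnt9b cells, except for Vwf at injury, where members were higher. Eln was at 191.1 CPM in recovery members and 154.0 CPM in injury members, against 242.9 and 11.2 CPM in Rspo3/Wnt9b cells, so elastin was as high in those cells at recovery and not at injury. Bgn, which encodes the matrix proteoglycan biglycan, was at 902.1 and 761.9 CPM in members, against 1142 and 890.1 CPM. Gja5 was at 259.9 and 270.8 CPM in members, against 0 UMIs in recovery Rspo3/Wnt9b cells and 1 UMI in those at injury. Ly6c1 was at 493.1 and 1630.0 CPM in members, against 4.29 and 25.9 CPM in Rspo3/Wnt9b cells. Sdc1 was at 573.4 and 339.8 CPM in members, against 3.34 and 2.52 CPM. Gja5 and Sdc1, which the rule did not use, were higher in members than in Rspo3/Wnt9b cells at both stages, while the height of Ly6c1 restates the rule. Bmp4, a growth factor, ran the other way, at 22.9 CPM in recovery members and 34.5 CPM in injury members, against 532.5 and 229.4 CPM in Rspo3/Wnt9b cells. Of 13 sinusoidal markers that entered, 4 were at least 2-fold lower and 2 higher in recovery members than in Rspo3/Wnt9b cells (median log2 ratio -0.78). At injury 2 were lower and 1 higher (median -0.35). Over all genes, members were at least 2-fold higher for 4.30% and lower for 5.67% in recovery (9.97% either way), and for 3.34% and 4.37% in injury (7.71% either way).

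Between stages, members at recovery were at least 2-fold higher than members at injury for 6.88% of 7076 genes and lower for 6.03% (12.9% either way), with a median log2 ratio of 0.14. In other endothelial cells the same limits were passed by 0.875% and 3.24% of 6970 genes (4.12% either way). Members had 261617 and 376685 UMIs at recovery and injury, against 19729441 and 23770675 in other endothelial cells, and the part of this difference in depth was not tested. With TMM scaling, which moved all ratios of members by -0.16, 342 genes were higher and 539 lower, against 487 higher and 427 lower as counted here. Outside sub-cluster 3, 8.12% of genes were higher and 6.25% lower (14.4% either way).

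Interferon response genes were lower in recovery members throughout. All 18 genes of the list were at least 2-fold lower in recovery members than in injury members, with a median log2 ratio of -2.63. Among all genes 6.03% were lower, and the median was 0.14. In other endothelial cells 17 of 18 were lower at recovery, with a median of -2.18, beside 3.24% of all genes and a median of 0.17. Ifit1, an antiviral RNA-binding protein, was at 11.5 CPM (2.37 to 33.5) in recovery members and 687.6 CPM (606.4 to 776.6) in injury members, a log2 ratio of -5.02. Rsad2, the antiviral enzyme viperin, was at 22.9 CPM in recovery members and 976.9 CPM in injury members. Isg15, a ubiquitin-like modifier, was at 53.5 CPM in recovery members and 836.2 CPM in injury members. Each was detected in 50 or more of the 65 injury members and in 3 to 8 of the 25 recovery members, so they were frequent at injury and rare at recovery. Irf7, a transcription factor that amplifies the response, was at 34.4 CPM in recovery members and 852.2 CPM in injury members, and at 19.8 and 561.9 CPM in other endothelial cells of recovery and injury. Within each library members and other endothelial cells differed by less than 2-fold for every interferon gene that entered. Thus 0 were called in either direction, beside 12.1% of all genes in recovery and 7.17% in injury.

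The interferon difference was not limited to 1 sub-cluster of injury members. Irf7 was at 34.4 CPM in recovery members, against 672.2 CPM in sub-cluster 1, 884.3 CPM in sub-cluster 2 and 903.6 CPM in sub-cluster 3 of the injury library. Outside sub-cluster 3 all 18 genes remained at least 2-fold lower at recovery, with a median of -2.57, beside 6.25% of all genes. Cxcl10, an interferon-induced chemokine, was at 206.4 CPM in recovery members and 2020.3 CPM in injury members, and Icam1, a leukocyte adhesion molecule, at 229.3 and 791.1 CPM. Of 13 genes of MHC class I and peptide loading, 3 were lower in recovery members and 1 higher, beside 6.03% and 6.88% of all genes. H2-D1, a class I heavy chain gene whose reads may be shared with related genes, was at 2419.6 CPM in recovery members and 5620.1 CPM in injury members, and B2m, the class I light chain, at 1552 and 3186 CPM.

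Promoter sequences of 4 genes of the interferon list are shown. Members of the list moved together, and interferon acts through the ISRE, the interferon-stimulated response element. They are RefSeq promoters on GRCm38.p6, 250 bases before to 50 bases after each gene's start, written 5′ to 3′ in the direction of the gene, with capitals where GAAA, NN and GAAA followed each other on either strand (on the other strand TTTC, NN and TTTC), overlapping matches included, N standing for any base. Ifit1 lies at chr19:34640639-34640938 on the plus strand, Ifit3 at chr19:34583279-34583578 on the plus strand, Isg15 at chr4:156200769-156201068 on the minus strand and Rsad2 at chr12:26456403-26456702 on the minus strand.
Ifit1: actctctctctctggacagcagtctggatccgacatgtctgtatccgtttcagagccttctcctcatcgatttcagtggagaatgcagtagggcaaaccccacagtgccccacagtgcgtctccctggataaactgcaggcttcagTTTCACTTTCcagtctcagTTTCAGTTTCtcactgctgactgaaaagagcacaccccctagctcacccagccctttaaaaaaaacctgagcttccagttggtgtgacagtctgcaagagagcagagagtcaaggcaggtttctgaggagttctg
Ifit3: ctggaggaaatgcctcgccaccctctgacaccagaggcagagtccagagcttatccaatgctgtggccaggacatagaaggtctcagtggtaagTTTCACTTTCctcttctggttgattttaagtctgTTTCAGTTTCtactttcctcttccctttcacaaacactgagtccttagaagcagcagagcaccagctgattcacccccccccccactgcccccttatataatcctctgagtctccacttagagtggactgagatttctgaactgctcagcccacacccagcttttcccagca
Isg15: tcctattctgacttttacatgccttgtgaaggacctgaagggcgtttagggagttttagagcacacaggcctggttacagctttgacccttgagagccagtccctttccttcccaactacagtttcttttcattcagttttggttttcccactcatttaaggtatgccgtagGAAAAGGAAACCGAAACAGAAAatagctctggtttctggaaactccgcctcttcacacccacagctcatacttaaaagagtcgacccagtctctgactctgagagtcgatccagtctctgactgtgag
Rsad2: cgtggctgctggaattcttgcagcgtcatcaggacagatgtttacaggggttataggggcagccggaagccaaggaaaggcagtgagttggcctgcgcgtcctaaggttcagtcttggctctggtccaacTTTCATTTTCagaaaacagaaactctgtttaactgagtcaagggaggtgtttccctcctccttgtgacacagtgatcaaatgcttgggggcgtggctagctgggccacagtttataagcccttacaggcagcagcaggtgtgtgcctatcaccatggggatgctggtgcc
Counted from the start, matches began at -104 and -85 in Ifit1, at -156 and -122 in Ifit3, from -78 to -66 in Isg15 with 3 overlapping matches, and at -120 in Rsad2. Of the 18 listed genes 13 were in the promoter table, with 15 promoters, and 6 of these (in Bst2, Ifit1, Ifit3, Igtp, Isg15 and Rsad2) held a match, 40.0%. Of all 32851 promoters in the table, 3.44% held one. Irf7, Ifit2 and Ifi44 held none in this window. All 4 promoters shown held a match, so they do not stand for the whole list. Irf7 changed more between stages than Isg15 and is not shown.

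Genes higher in recovery members differed in whether the injury cells of sub-cluster 1 shared their level. Crip1, which encodes a small LIM domain protein, was at 856.2 CPM (747.8 to 976.0) in recovery members and 71.7 CPM (47.2 to 104.3) in injury members, a log2 ratio of 3.41, the highest of the named genes. The naming rule leaves out unnamed gene models, and 1 of these, Gm12840, had a higher ratio, at 1135 CPM in recovery members and 0 UMIs in injury members (at least 142.5-fold higher, with 3 UMIs over the group as the floor). It was at 606.5 CPM at recovery and 1.30 CPM at injury in other endothelial cells. Cst3, the gene of cystatin C, a cysteine protease inhibitor, was at 5133 CPM in recovery members and 1083 CPM in injury members. Both were also higher at recovery in other endothelial cells, with log2 ratios of 1.29 for Crip1 and 1.14 for Cst3. Within sub-cluster 1, Crip1 was at 856.2 CPM at recovery and 243.1 CPM (141.6 to 389.3) at injury, and Cst3 at 5133 and 2088 CPM. Gstp1, a glutathione transferase whose reads may be shared with near copies, was at 214.1 CPM in recovery members and 29.2 CPM in injury members, and Cavin1, a coat protein of caveolae, at 504.6 and 143.4 CPM.

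Edn1, Cyp1a1 and Fbln2 behaved otherwise. Over all members Edn1 was at 886.8 CPM at recovery and 241.6 CPM at injury, a log2 ratio of 1.83, but within sub-cluster 1 it was at 886.8 CPM (776.3 to 1009) at recovery and 800.9 CPM (605.0 to 1040.1) at injury. Cyp1a1, with a log2 ratio of 1.99 over all members, was at 829.5 CPM at recovery and 657.9 CPM at injury within sub-cluster 1. Fbln2 was at 1216 CPM at recovery and 1344 CPM at injury within sub-cluster 1. The intervals of each of these 3 genes overlapped between the libraries there, while injury cells of sub-clusters 2 and 3 were lower: Edn1 was at 192.5 and 21.4 CPM and Fbln2 at 445.2 and 35.6 CPM. The 3 genes helped to form sub-cluster 1, so their likeness within it is partly built in. In the finer cluster of 10 recovery and 12 injury cells, intervals overlapped for Edn1, at 1080.2 CPM (883.5 to 1308) at recovery and 746.2 CPM (565.1 to 966.7) at injury, and for Fbln2, at 1533 and 1388 CPM. They did not for Cyp1a1, at 1512 CPM (1278 to 1777) at recovery and 654.5 CPM (485.8 to 862.9) at injury.

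Ly6c1 and Mgp were lower in recovery members, and that difference was present within sub-cluster 1 as well. Ly6c1 had a log2 ratio of -1.70 over all members and was at 493.1 CPM at recovery and 1931 CPM at injury within sub-cluster 1. In other endothelial cells its ratio was -1.57, at 14.5 CPM at recovery and 62.6 CPM at injury. Mgp had a ratio of -1.67 and was at 286.7 CPM at recovery and 3261 CPM at injury within sub-cluster 1. Its ratio in other endothelial cells was -0.44. Sub-cluster 1 held unlike cells, since Mgp was at 18.2 CPM and Ly6c1 at 340.6 CPM in the 15 recovery cells that stood apart at the finer resolution. In the finer cluster of 10 recovery and 12 injury cells, Ly6c1 was at 751.0 CPM (588.6 to 944.2) at recovery and 1898 CPM (1602 to 2233) at injury, and Mgp at 740.7 CPM (579.5 to 932.8) and 3194 CPM (2806 to 3621). Vwf was at 1028 CPM in recovery members and 1399 CPM in injury members, under 2-fold, and at 1028 and 2689 CPM within sub-cluster 1. Because Ly6c1 and Vwf chose the cells, their levels among members are bounded from below by the rule.

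Ednrb and Ly6a were within 2-fold between stages in members and at least 2-fold lower at recovery in other endothelial cells. Ednrb had a log2 ratio of 0.38 in members and -1.75 in other endothelial cells, and Ly6a of -0.03 and -1.17. Ace had -0.07 in members and -1.50 in other endothelial cells, but 1 cell held 47% of its recovery UMIs, and without the cell with most Ace UMIs in each library the ratio in members was -0.75. Emp1, a tetraspan membrane protein, had 0.21 in members and -1.99 in other endothelial cells. Other endothelial cells with 2 or more Selp UMIs numbered 17 at recovery and 803 at injury. In cells under the Selp, Rspo3 and Wnt9b limits, Ednrb was at 102.9 CPM at recovery and 379.8 CPM at injury. The difference between members and other endothelial cells in these ratios was not tested, since each stage is 1 library.

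**Figure D5:**
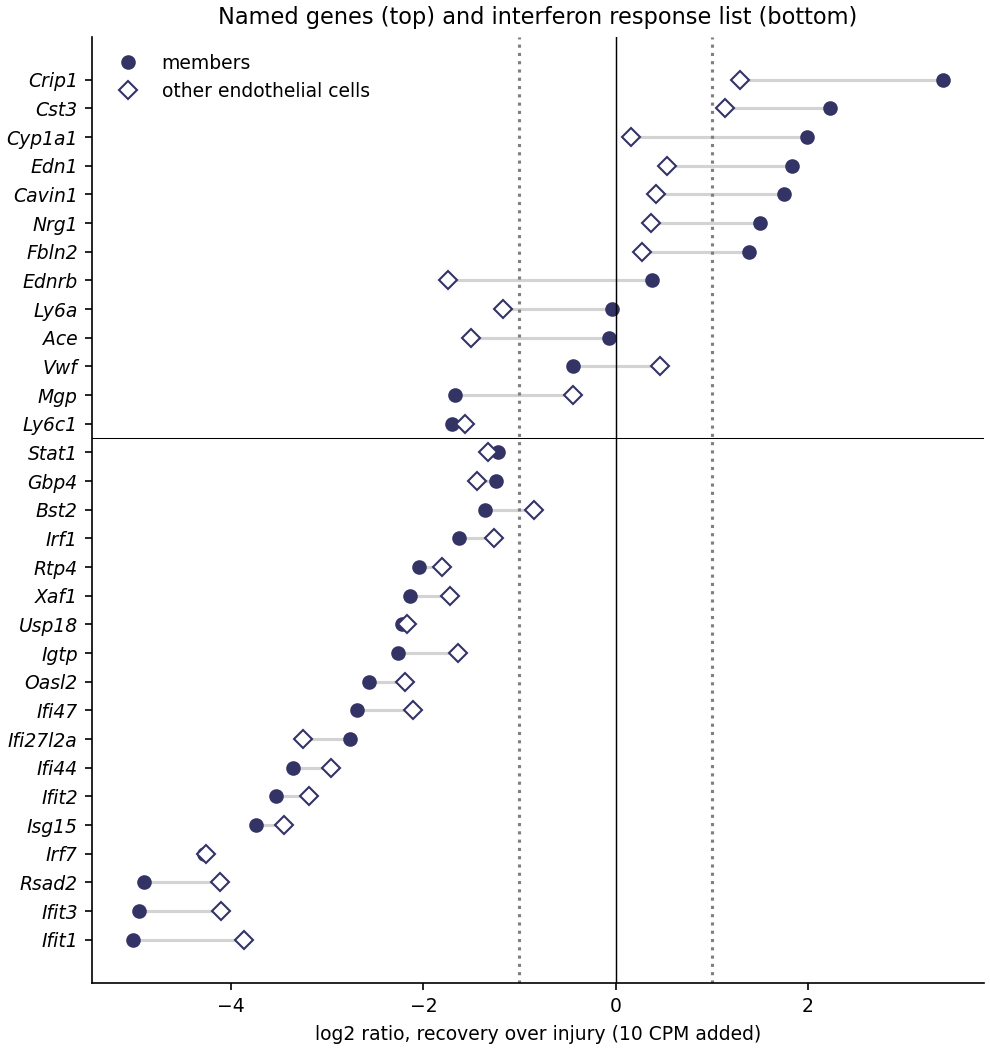
Log2 ratio of recovery over injury, with 10 CPM added, for 13 named genes (above the line) and 18 interferon response genes (below), in members (filled circles) and other endothelial cells (open diamonds), with dotted lines at 2-fold. All 18 interferon genes were at -1 or lower in members, and Ednrb, Ly6a and Ace were at 0.38, -0.03 and -0.07 in members (Ace -0.75 without its top cells) and at -1.17 or lower in other endothelial cells.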

How the data were processed

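The authors deposited counts of UMIs per gene and cell barcode, in matrices whose software version was 3.1.0, per the file headers, and from 10x Genomics 3' v2 libraries per the labels' protocols. The submitters' processing notes name featureCounts 1.6.2 and the builds GRCh38 and mm10. The sources used here give no aligner and no method of cell calling. Of 31053 gene IDs 30934 were found in GENCODE M21 (mm10). Counts of the positive injury library were not analysed here, and tdTomato was not among the features.

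Cells were chosen by the limits given above. UMIs were added up within each group and library and divided by the summed total (CPM). Ratios are log2 of CPM with 10 added, for genes with at least 20 CPM in 1 of 2 groups, and genes at 2-fold were counted. Genes were named by a rule: the rule genes and given markers, the 15 highest and 15 lowest ratios at 50 CPM or more, and up to 4 per list, leaving out mitochondrial, ribosomal and unnamed (Gm, Rik) genes. Ly6c2, Gm12840 and the defining markers Ptprc, Col1a1, Pdpn and Mmrn1 were named beside it, and the comparisons within sub-clusters and the ratios without top cells were chosen after values were seen. The members and lists were chosen with earlier results of these data known. With 1 library per stage, no test was run.

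Members were clustered on 1500 variable genes, 20 components and 15 neighbours (scanpy 1.11.5, leidenalg 0.10.2, resolution 0.5, seed 7). Doublets were not called or removed, and an alternative left out the 10% of cells with most UMIs. Cholangiocytes had at least 10 UMIs per 10000 of Epcam, Krt7, Sox9 and Cldn7 and under 10 per 10000 of the pan-endothelial genes of the rule. TMM factors came from edgeR 4.0.16. The ratio script was tested on simulated data.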

Additional observations from a re-analysis of the deposited data

Results flagged for a closer look

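Thbs1, which encodes thrombospondin 1, had differences of opposite sign in members and other endothelial cells. Its log2 ratio of recovery over injury was 2.41 in members and -1.91 in other endothelial cells, and its ratio of members over other endothelial cells was 2.38 at recovery and -1.94 at injury. All 15 Thbs1 UMIs of recovery members came from 1 cell, and injury members had 1 UMI. Adamts5, a matrix protease, had a ratio of recovery over injury of 1.93 in members (18 UMIs in 7 cells at recovery and 4 UMIs in 4 cells at injury) and -1.13 in other endothelial cells. These differences were not tested, because each stage is 1 library.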

How the results depend on the processing

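No paired analysis was possible because each stage is 1 library and the labels give no replicate numbers. UMI minimums of 500 and 2000 per cell, pan-endothelial limits of 5 and 20 per 10000 and TMM scaling moved no count of genes by over 1.5 times and no share of members out of its interval. With the vascular limit at 10 per 10000, members were 1.91% of endothelial and 1.56% of all kept cells at recovery and 2.57% and 1.84% at injury, and 346 genes at recovery and 170 at injury were lower than in other endothelial cells. At 25 per 10000 the shares were 0.305%, 0.248%, 0.848% and 0.607% in the same order, members were higher than other endothelial cells for 902 genes and lower for 1549 at recovery and for 355 and 681 at injury, and recovery over injury gave 1406 higher and 1204 lower. With 1 CPM added, 819 genes at recovery and 461 at injury were lower in members, and 847 were higher in recovery over injury members. With 50 CPM added, counts were 158 higher and 174 lower at recovery, 92 and 67 at injury, and 46 and 122 for recovery over injury. The mean over cells gave 746 higher in recovery over injury. Without members at 20 per 10000 or more of sinusoidal genes, shares were 0.656% and 0.534% at recovery and 0.803% and 0.573% at injury, 862 genes were lower at recovery, 413 higher and 694 lower at injury, and 813 higher and 677 lower for recovery over injury. Without sub-cluster 3, chosen after seeing the data, injury members were 1.07% of endothelial and 0.7625% of kept cells, with 360 genes higher and 592 lower than other endothelial cells.

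The recovery over injury ratios of sinusoidal genes in members depended on the injury cells with sinusoidal RNA. Without members at 20 per 10000 or more of sinusoidal genes, they turned to 0.69 for Stab2, 0.27 for Fcgr2b and 0.39 for Oit3. That limit took out 10 of 25 recovery members and 35 of 65 injury members. Without sub-cluster 3 they turned to 1.08 for Stab2, 0.36 for Oit3, 0.0213 for Bmp2 and 0.28 for Plxnc1. Stab2 and Fcgr2b are among the genes that set the limit, and sub-cluster 3 had the highest sinusoidal content, so these turns are partly built in. Without the 10% of cells with most UMIs, Thbs1 turned to -0.20 for members over other endothelial cells at recovery and -0.34 for recovery over injury. At the limit of 25 per 10000, Fabp5 turned to -0.70 for members over other endothelial cells at recovery. These were 8 of the 195 gene and list values past 2-fold (Thbs1 counting 2 times) that turned under any of 14 alternatives, and the cause was not tested. Of 330 gene and list values followed, 156 left their counting interval with the vascular limit at 25 per 10000 and 138 without members at 20 per 10000 or more of sinusoidal genes. That number was 91 without sub-cluster 3, 88 with 50 CPM added, 63 with 1 CPM added and 63 with the vascular limit at 10 per 10000, and at most 28 under each other alternative. The small number of members limits genes at low level: 3 UMIs are 11.5 CPM in recovery members and 7.96 CPM in injury members.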

Other observations

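Of 13 BMP and TGF-beta genes, 3 were at least 2-fold higher and 3 lower in recovery members than in other endothelial cells, beside 12.1% of all genes higher or lower, and 2 of 12 were higher in injury members, beside 3.34% of all genes. Acvrl1, a BMP receptor of endothelium, was at 202.6 CPM in recovery members and 143.4 CPM in injury members, against 59.3 and 35.3 CPM in other endothelial cells, and Id1, a target of BMP signalling, at 772.1 and 520.3 CPM, against 249.0 and 108.1 CPM. Eng, a co-receptor of the same pathway, was lower in recovery members, at 940.3 CPM against 2217 CPM in other endothelial cells, and was at 921.2 against 1391 CPM at injury. Notch1 was at 451.0 and 403.5 CPM in members, against 443.7 and 330.8 CPM, while its ligand Dll4 was at 122.3 and 217.7 CPM, against 110.4 and 86.9 CPM.

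Enzymatic digestion is known to induce dissociation stress genes. Of 15 such genes, 5 were at least 2-fold higher in recovery members than in other endothelial cells and 2 in injury members, beside 4.83% and 3.34% of all genes. Hspa1a, a heat shock protein, was at 707.1 CPM in recovery members and 692.9 CPM in injury members, against 150.6 and 217.2 CPM, with 42% of the recovery UMIs from 1 cell. The part of digestion in the differences of members was not tested. Lrg1, a secreted glycoprotein of activated endothelium, was at 378.4 CPM in recovery members and 1088 CPM in injury members, against 85.5 and 513.7 CPM. Cmklr1, the chemerin receptor, was at 179.7 and 167.2 CPM in members, against 6.79 and 3.79 CPM, and Cd200, an inhibitory ligand for myeloid cells, at 240.8 and 225.7 CPM, against 17.4 and 13.5 CPM.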
